A study of Mus musculus with 24 samples.

Results

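The 39 genes described here encode proteins of blood coagulation and of the complement system that the liver makes. They were taken as the probe sets whose RefSeq accession belongs to one of 39 listed mouse symbols. All 39 were found, on 40 probe sets, among the 14351 genes that could be named on the array. By role they are 10 coagulation factors (contact factors included), the 3 fibrinogen chains, 4 coagulation inhibitors and protein C system genes, 3 genes of clot breakdown and its inhibition, 8 genes that start or amplify complement, 5 genes of the terminal complement pathway and 6 complement and contact regulators.

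Mouse liver RNA was measured on 24 Affymetrix 3′ expression arrays, and the design counts 12 adult and 12 young mice. Adult mice were 12 to 14 months old and young mice 4 to 5 weeks old. In each age, 3 mice had 30 min, 3 had 60 min and 3 had 90 min of partial hepatic ischemia (closure of the blood vessels to some liver lobes), and 3 had a sham operation. The median and left lobes were taken, and strain and sex are not given in the sources used here. In the titles of the ischemia samples the min of ischemia are followed by a slash and 0; what the 0 stands for is not given, and neither is any time of restored blood flow. Every value is the deposited ratio to the average of its own age's 3 sham arrays, which is thus 1 for every gene in both ages. Absolute brightness is therefore not kept: levels of different genes, and of adult against young sham liver, could not be compared, and the tissue could not be checked by the level of its markers.

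Hepatocytes secrete most clotting factors into blood as inactive precursors. Contact factors and tissue factor start a cascade of proteases that ends with thrombin cutting fibrinogen to fibrin, antithrombin and the protein C system restrain it, and plasmin, made from plasminogen, dissolves the clot. Complement is a related cascade: lectins such as mannose-binding lectin or antibodies lead to cleavage of C4, C2 and C3, the alternative pathway amplifies through factor B, and the terminal components insert into membranes. Soluble regulators made by the liver and membrane-anchored regulators limit it. Cd59a and Cd55 encode membrane-anchored regulators that many cell types carry, so these 2 members are not secreted liver proteins like the other 37. In whole tissue, fewer cells of a type and less RNA per cell cannot be told apart.

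In adult liver nearly all of these genes lay below sham, by a modest amount in the typical member. After 30 min all 39 log2 changes were below 0, with a median of -0.16, after 60 min all 39 with a median of -0.38, and after 90 min 37 of 39 with a median of -0.30. The medians of the 60 and 90 min changes correspond to 0.766 and 0.812 of sham. Over all 14351 genes the shares below 0 at 30, 60 and 90 min were 57%, 58.7% and 56.5%, with medians of -0.03, -0.05 and -0.04. Few single members passed the test. With limma and an adjusted p under 0.05 over all 14351 genes, 4 members fell at 60 min (Serpinc1, Cd59a, Masp2 and C4bp), 3 fell at 90 min (Cd59a, Masp2 and C4bp) and none rose. Over all genes 11.9% passed at 60 min (9.78% downward) and 7.45% at 90 min (6.28% downward), so the members' shares of 10.3% and 7.69% were near the background. An unadjusted p under 0.05 was found for 23 of 39 members (59.0%) at 60 min, against 33.3% of all genes, and for 15 (38.5%) at 90 min, against 28.6%. At 30 min 0 members passed, against 0% of all genes, and 0 members had an unadjusted p under 0.05, against 10.4% of all genes.

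More members had separate groups at 90 min than at 60 min. At 90 min all 3 adult ischemia arrays lay below all 3 adult sham arrays for 29 of 39 members (74.4%), against 26.4% of all genes. At 60 min this held for 11 of 39 members (28.2%), against 25.9% of all genes, and at 30 min for 2, against 6.29%. The 10 members whose groups overlapped at 90 min were F5, F9, Serpinf2, Klkb1, C2, C8b, C8g, C9, Mbl1 and Mbl2.

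**Figure D1:**
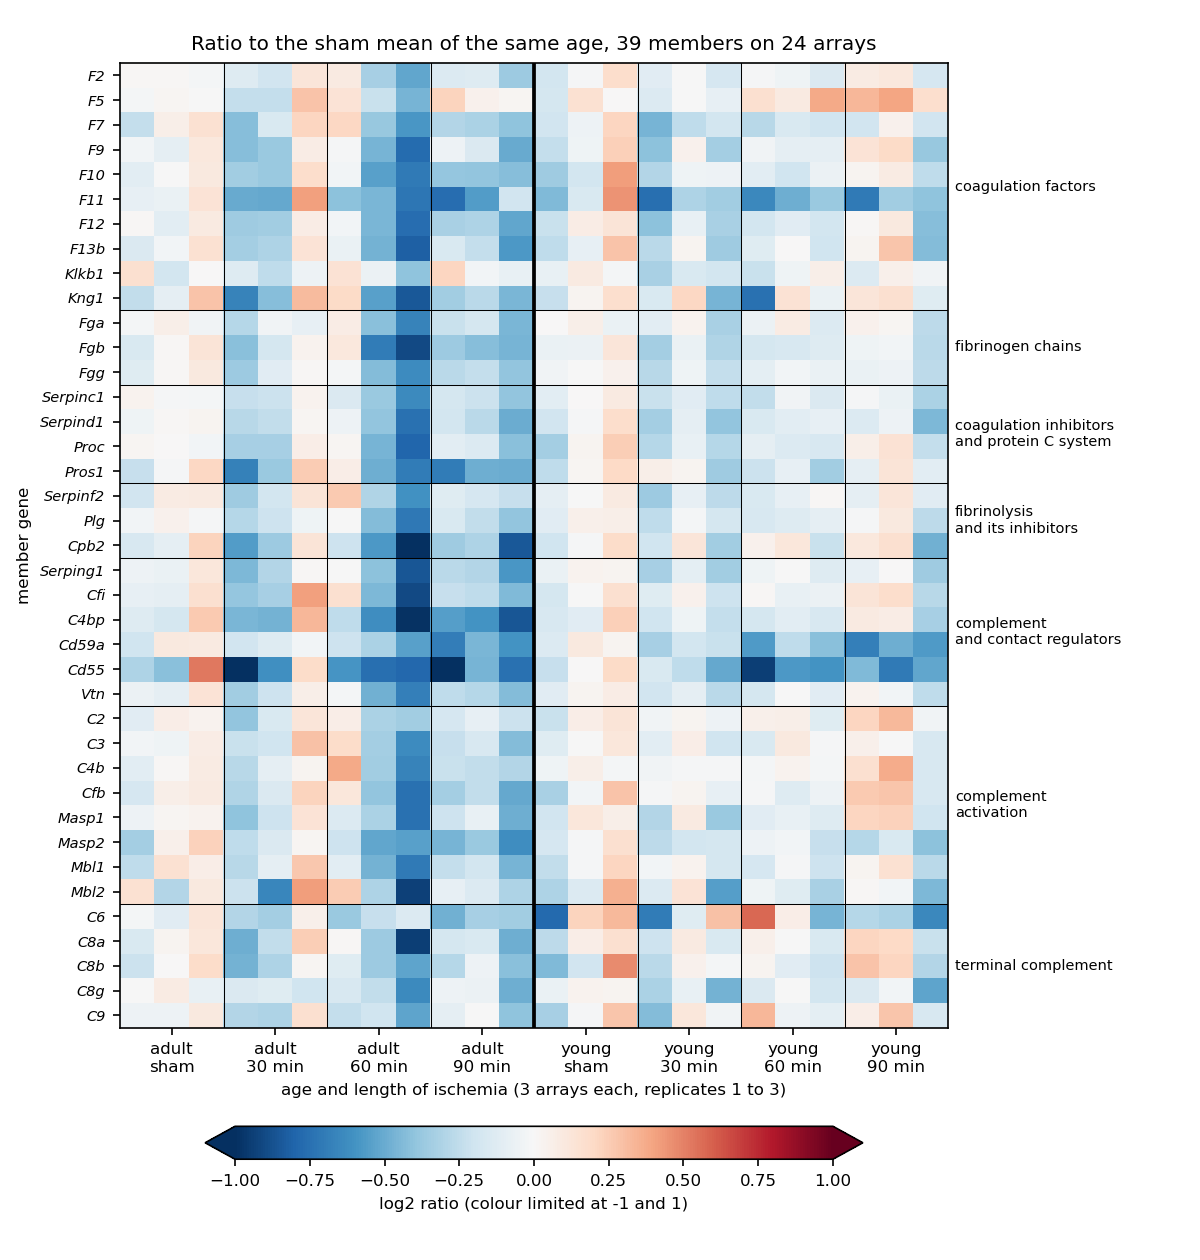
Colour gives the log2 ratio to the sham mean of the same age for each of the 39 members (rows, grouped by role) on each of the 24 arrays (columns, 3 per group, adult groups left of young groups). Blue is below sham: the adult ischemia columns are mostly blue except replicate 3 at 30 min and replicate 1 at 60 min. In young liver replicates 1 and 3 at 30 min, all 3 at 60 min and replicate 3 at 90 min are also mostly blue. Replicates 1 and 2 of the young 90 min columns have most members above 0. Cd55 and Cd59a are blue at 60 and 90 min in young liver.

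The members moved up or down together on single arrays, and arrays of a group stood apart. In adult liver the median ratio of the 39 members was 0.944, 1.00 and 1.07 on the 3 sham arrays, 0.786, 0.845 and 1.09 after 30 min, 0.991, 0.751 and 0.614 after 60 min, and 0.851, 0.845 and 0.738 after 90 min. Replicate 3 at 30 min thus lay slightly above all 3 sham arrays, and replicate 1 at 60 min lay within their range. Replicate 3 at 60 min lay lowest of all arrays. In young liver the medians were 0.875, 0.997 and 1.12 after sham, 0.834, 0.986 and 0.848 after 30 min, 0.924, 0.965 and 0.907 after 60 min, and 1.02, 1.07 and 0.833 after 90 min. The young groups overlap their sham arrays at all 3 times. On adult replicate 3 at 60 min the quartiles of the members were log2 ratios of -0.79 and -0.60, and on replicate 1 they were -0.14 and 0.11.

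Hepatocyte markers moved with the members. Of 24 listed markers (Alb, Ttr, Apoa1 and others) 22 were measured. In adult liver their median log2 change was -0.29 at 60 min and -0.21 at 90 min, with 21 of 22 below 0 at either time. At 60 min 4 of the markers fell past the threshold (18.2%, against 11.9% of all genes), and at 90 min 1 did (4.55%, against 7.45%). The marker that passed at 90 min was Hnf4a, which is also in the list of hepatocyte transcription factors given below. The median of the 22 markers per adult array ranged from -0.50 to -0.11 at 60 min and from -0.43 to -0.09 at 90 min, against -0.02 to 0.03 after sham. In a setting chosen after seeing the data, every array was centred on the median of these markers. The members' median was then -0.09 at 60 min and -0.09 at 90 min. Below 0 were 30 and 31 of 39 members, and 0 were past the threshold. Under this centring 16.9% of all genes passed at 60 min, most of them upward, and 0.432% at 90 min. With so small a share at 90 min, the count of 0 members there says little. The share of all genes below 0 under this centring is not given here, so the members' counts below 0 have no background. That centring moved the median of all genes up, to 0.24 at 60 min and 0.17 at 90 min. Markers of Kupffer cells, the macrophages of the liver, were lower still at 90 min in adults, with 12 of 14 past the threshold, a median of -1.07 and array medians of -1.61 to -0.87, against -0.31 to 0.33 after sham. Endothelial markers had array medians of -0.73 to -0.03 there, against -0.02 to 0.02, with 2 of 15 past the threshold, and stellate cell markers in young liver at 90 min had -0.68 to -0.52, against -0.09 to 0.11, with 4 of 14. Of all genes 7.45% passed at 90 min in adults and 0.181% in young liver. Not all cell types were lower in adults at 90 min: stellate cell markers had a median log2 change of -0.09, with 2 of 14 past the threshold. T and NK cell markers had a median of 0.11, platelet markers 0.14, neutrophil markers 0.04 and red blood cell markers 0.06, with 0 past the threshold. The part of any of these cell types in the members' changes was not tested.

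**Figure D2:**
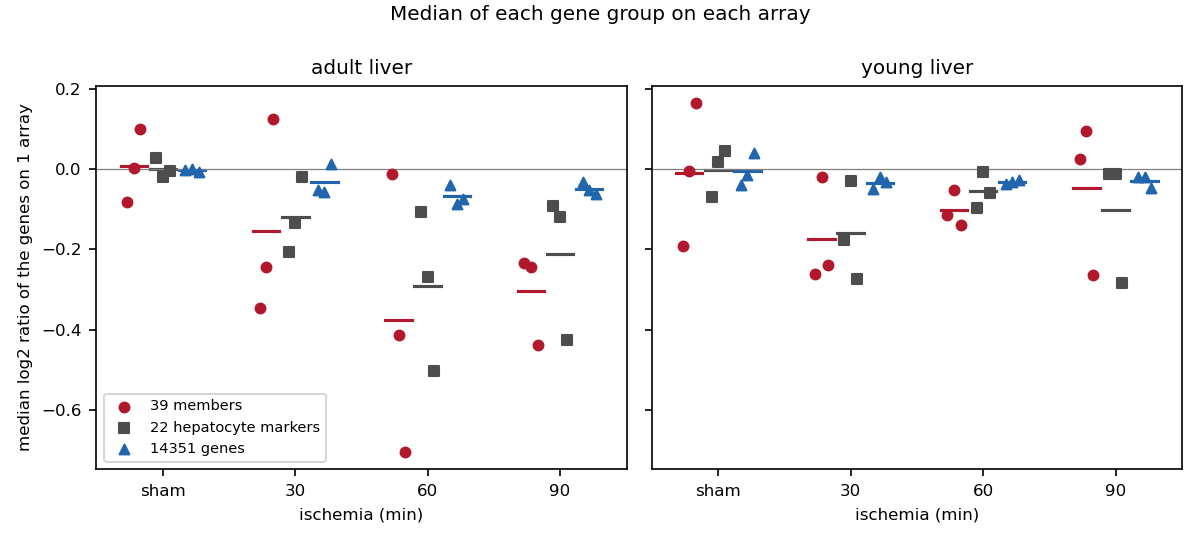
Each point is the median log2 ratio on 1 array (vertical axis) of the 39 members (circles), the 22 hepatocyte markers (squares) or all 14351 genes (triangles), by length of ischemia in min; bars are means of 3 arrays, and adult liver is the left panel. Members and hepatocyte markers are low on the same adult arrays, and the median of all genes stays near 0.

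Sample titles carry a code whose first part is shared by some arrays; what it stands for is not given in the sources used here. Within arrays that share it, the members' median log2 difference at 60 min in adults was 0.08, -0.39 and -0.77, with 14, 38 and 39 members below 0, so the median at 60 min was not below 0 in every such set. At 90 min in adults it was -0.22 and -0.43, with 35 and 38 members below 0. At 30 min in adults it was -0.27, -0.24 and 0.03.

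Cd59a, which encodes a membrane-anchored inhibitor of the last step of membrane attack complex assembly, was the member with the lowest adjusted p in either age. The adult arrays had Cd59a ratios of 0.869, 1.07 and 1.06 after the sham operation, 0.874, 0.914 and 0.979 after 30 min, 0.866, 0.802 and 0.685 after 60 min and 0.620, 0.727 and 0.662 after 90 min. Cd59a ratios in young liver were 0.908, 1.07 and 1.02 after the sham operation, 0.794, 0.883 and 0.857 after 30 min, 0.676, 0.838 and 0.746 after 60 min and 0.622, 0.714 and 0.675 after 90 min. In both ages the 60 and 90 min arrays lay below all sham arrays of that age, and the group means were lower at each longer time. Cd59a fell in adults by a log2 change of -0.35 ± 0.11 at 60 min (SE; adjusted p = 0.0421) and -0.57 ± 0.11 at 90 min (adjusted p = 0.0123). In young liver it fell at 90 min by -0.58 ± 0.11 (adjusted p = 0.0289), and its change at 60 min was -0.41 ± 0.11 (adjusted p = 0.176). Of all genes in young liver at 90 min, 0.181% passed (0.111% downward), and Cd59a was the only member among them. Tested over the 3 times together with limma's F test, Cd59a was also the only adult member past the threshold (adjusted p = 0.0411, against 0.516% of all genes). In adults 9 of 39 members had an unadjusted p under 0.05 in that F test, against 24.2% of all genes. In young liver 0 members passed that F test, against 0.0906% of all genes, and 1 had an unadjusted p under 0.05, against 9.18%. Cd59a has a close copy, Cd59b, and the probes of the array were not used here to tell them apart.

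Cd55 encodes decay-accelerating factor, a membrane-anchored protein that dissociates the enzymes cleaving C3. It had the lowest adult log2 change of the 39 at 60 and at 90 min without passing the threshold. On the adult arrays Cd55 stood at 0.806, 0.749 and 1.45 after the sham operation, 0.467, 0.653 and 1.13 after 30 min, 0.666, 0.592 and 0.579 after 60 min and 0.336, 0.723 and 0.597 after 90 min. In young liver its ratios were 0.854, 1.01 and 1.14 after the sham operation, 0.902, 0.837 and 0.702 after 30 min, 0.522, 0.671 and 0.659 after 60 min and 0.737, 0.612 and 0.699 after 90 min. The adult sham arrays spread widely, with replicate 3 highest, and in both ages the 60 and 90 min arrays lay below all sham arrays. The log2 change was -0.86 ± 0.28 in adults at 90 min (adjusted p = 0.0624) and -0.69 ± 0.28 in young liver at 60 min (adjusted p = 0.429). The members below all sham arrays in both ages were C8g at 30 min, Cd59a and Cd55 at 60 min, and Fgg, Cd59a and Cd55 at 90 min. The share of all genes below sham in both ages was not counted, so these counts have no background to be set against. Within 1 age it was 6.29% in adults and 9.49% in young liver at 30 min. At 60 min it was 25.9% and 7.78%, and at 90 min 26.4% and 9.5%.

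C4bp encodes the alpha chain of C4b-binding protein, a soluble regulator that limits C4b. The adult arrays had C4bp ratios of 0.915, 0.887 and 1.20 after the sham operation, 0.730, 0.722 and 1.26 after 30 min, 0.840, 0.650 and 0.503 after 60 min and 0.684, 0.660 and 0.552 after 90 min. C4bp ratios in young liver were 0.895, 0.925 and 1.18 after the sham operation, 0.872, 0.971 and 0.848 after 30 min, 0.886, 0.930 and 0.896 after 60 min and 1.07, 1.05 and 0.795 after 90 min. The adult 60 and 90 min arrays lay below all adult sham arrays, and the young arrays overlapped sham at all times. C4bp fell in adults by -0.61 ± 0.20 at 60 min (adjusted p = 0.0486) and -0.65 ± 0.20 at 90 min (adjusted p = 0.0473). In young liver its changes were -0.14 and -0.04.

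Masp2 encodes the protease that, bound to mannose-binding lectin, cleaves C4 and C2. On the adult arrays Masp2 stood at 0.790, 1.04 and 1.17 after the sham operation, 0.840, 0.906 and 1.01 after 30 min, 0.868, 0.697 and 0.687 after 60 min and 0.723, 0.774 and 0.652 after 90 min. In young liver its ratios were 0.891, 0.992 and 1.12 after the sham operation, 0.834, 0.881 and 0.884 after 30 min, 0.966, 0.980 and 0.852 after 60 min and 0.820, 0.902 and 0.752 after 90 min. The adult 90 min arrays lay below all sham arrays, and 1 of the 60 min arrays overlapped sham. Masp2 fell in adults by -0.40 ± 0.13 at 60 min (adjusted p = 0.0479) and -0.47 ± 0.13 at 90 min (adjusted p = 0.0378). A second probe set, for another RefSeq transcript of the gene, gave -0.41 and -0.37. In a fit over every probe set the first probe set had an adjusted p of 0.0557 at 60 min and 0.0426 at 90 min, and the second 0.0663 and 0.107, so only the first at 90 min passed there.

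Serpinc1 encodes antithrombin, the main plasma inhibitor of thrombin and factor Xa. The adult arrays had Serpinc1 ratios of 1.02, 0.990 and 0.986 after the sham operation, 0.852, 0.860 and 1.02 after 30 min, 0.905, 0.771 and 0.645 after 60 min and 0.887, 0.863 and 0.762 after 90 min. Serpinc1 ratios in young liver were 0.930, 1.00 and 1.07 after the sham operation, 0.858, 0.923 and 0.837 after 30 min, 0.842, 0.977 and 0.903 after 60 min and 0.991, 0.956 and 0.805 after 90 min. The adult sham arrays were close together, and the adult 60 and 90 min arrays lay below all of them. Serpinc1 fell in adults at 60 min by -0.38 ± 0.11 (adjusted p = 0.0377), and its change at 90 min was -0.26 ± 0.11 (adjusted p = 0.136).

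The calls of Cd59a, C4bp, Masp2 and Serpinc1 depended on single arrays. At 60 min the number of adult members past the threshold was 27 without replicate 1 of the 60 min arrays, which lay at sham level, and 0 without any other of the 6 adult arrays compared. The number of all genes past it moved too, to 2177 (15.2%) without replicate 1 of the 60 min arrays, 23 without replicate 2 and 1 without replicate 3, and to 14, 588 and 4 without sham replicates 1, 2 and 3. At 90 min 2 members passed without sham replicate 1, 1 without sham replicate 2, 90 min replicate 2 or 90 min replicate 3, and 0 without sham replicate 3 or 90 min replicate 1. All-gene counts at 90 min were 17, 91 and 266 without 90 min replicates 1, 2 and 3, and 312, 806 and 7 without sham replicates 1, 2 and 3. In young liver at 90 min 1 member passed without 90 min replicate 3, with 52 of all genes, and 0 without any other array, with 2 to 11 of all genes. With a block for arrays sharing the beginning of the title code, 0 members passed in adults at 60 min and in young liver at 90 min. The adjusted p at 60 min was then 0.0517 for Cd59a, 0.0507 for Serpinc1, 0.0584 for Masp2 and 0.0634 for C4bp, and that of Cd59a in young liver at 90 min was 0.125. In adults at 90 min Cd59a (adjusted p = 0.0138) and Masp2 (0.0349) passed with the block, and C4bp did not (0.0574). Of all genes 10.2% passed with the block there, 11.9% in adults at 60 min and 0.0279% in young liver at 90 min. The log2 change of Cd59a itself stayed between -0.67 and -0.52 in adults and between -0.64 and -0.52 in young liver at 90 min whichever array was left out. Its adult call at 90 min held without any of 4 of the 6 arrays.

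**Figure D3:**
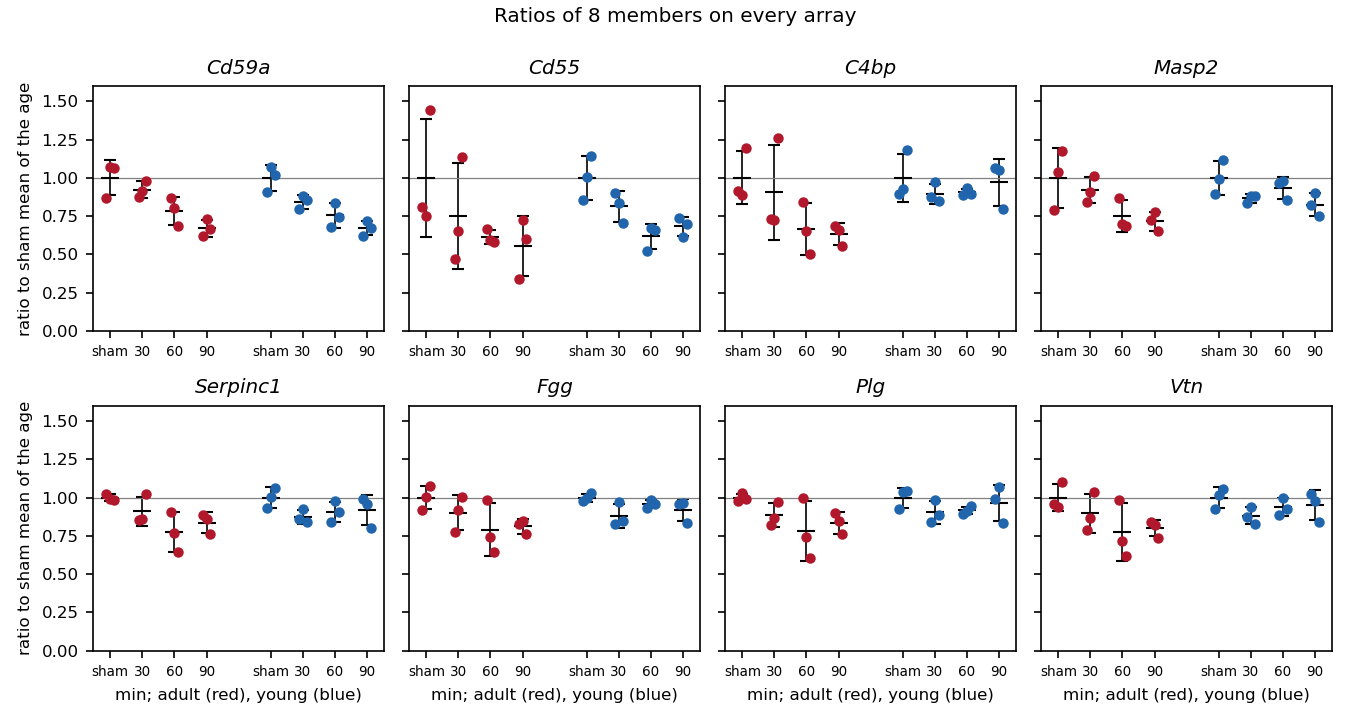
The vertical axis is the ratio to the sham mean of the age, for the 4 members past the threshold and the next 4 by p, by min of ischemia, adult in red left of young in blue; points are arrays, and bars are the mean ± SD of 3. Cd59a and Cd55 lie below their sham arrays at 60 and 90 min in both ages, and the other 6 do so in adults at 90 min.

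The RefSeq promoters (GRCm38.p6, 250 bases before to 50 after the start) of the 4 members that passed are shown because these are the genes whose decrease passed the test, with short motifs of liver transcription factors in capitals. The motifs searched on both strands were GTTAAT (HNF1 half-site), CAAAG (HNF4 core) and TTGCG (C/EBP core), and no base lay in more than 1 match.
Cd59a promoter, chr2:104095551-104095850, plus strand: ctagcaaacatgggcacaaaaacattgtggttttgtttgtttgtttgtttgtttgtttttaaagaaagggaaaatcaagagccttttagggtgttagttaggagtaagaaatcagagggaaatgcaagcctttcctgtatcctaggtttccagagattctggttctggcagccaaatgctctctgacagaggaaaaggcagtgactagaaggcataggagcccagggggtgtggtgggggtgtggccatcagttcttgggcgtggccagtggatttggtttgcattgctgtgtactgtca
C4bp promoter, chr1:130661569-130661868, minus strand: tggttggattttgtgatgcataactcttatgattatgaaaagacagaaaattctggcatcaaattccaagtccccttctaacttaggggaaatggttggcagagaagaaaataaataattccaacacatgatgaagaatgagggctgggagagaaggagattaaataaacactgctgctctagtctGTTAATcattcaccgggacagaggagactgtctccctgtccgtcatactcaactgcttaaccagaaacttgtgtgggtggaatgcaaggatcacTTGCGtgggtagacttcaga
Masp2 promoter, chr4:148602294-148602593, plus strand: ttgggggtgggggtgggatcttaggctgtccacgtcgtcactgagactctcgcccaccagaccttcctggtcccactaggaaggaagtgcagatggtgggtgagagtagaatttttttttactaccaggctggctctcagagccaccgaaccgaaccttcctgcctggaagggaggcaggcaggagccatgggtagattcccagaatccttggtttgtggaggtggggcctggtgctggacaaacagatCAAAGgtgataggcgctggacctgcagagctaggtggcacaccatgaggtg
Serpinc1 promoter, chr1:160978333-160978632, plus strand: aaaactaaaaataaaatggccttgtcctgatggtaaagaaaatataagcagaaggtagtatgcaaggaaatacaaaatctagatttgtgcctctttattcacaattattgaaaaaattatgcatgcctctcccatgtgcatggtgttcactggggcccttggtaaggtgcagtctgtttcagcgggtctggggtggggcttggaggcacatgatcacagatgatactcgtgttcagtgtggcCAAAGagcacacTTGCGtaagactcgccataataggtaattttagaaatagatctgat
The C4bp window held GTTAAT and TTGCG, the Masp2 window CAAAG, the Serpinc1 window CAAAG and TTGCG, and the Cd59a window none of the 3. Of the 30 members with a promoter in the RefSeq table, 9 held GTTAAT, 21 held CAAAG and 5 held TTGCG. Of all 32851 promoters of this length, 7.10% held GTTAAT, 53.9% held CAAAG and 17.4% held TTGCG. A match is a description of the letters and not a binding site.

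Among the 10 coagulation factors 0 passed in any comparison. Of all genes 11.9% passed in adults at 60 min, 7.45% in adults at 90 min and 0.181% in young liver at 90 min. A count among 10 genes cannot be told apart from these shares. Their adult log2 changes ran from -0.53 to -0.10 at 60 min and from -0.50 to 0.10 at 90 min. F11, the factor XI gene of the contact pathway, had log2 changes of -0.53 and -0.50 at 60 and 90 min in adults, and it was also low in young liver, with -0.42, -0.45 and -0.44 at 30, 60 and 90 min (adjusted p of at least 0.493). F10 (factor X, whose active form makes thrombin) had log2 changes of -0.42 and -0.40 at the same times in adults, F12 (factor XII, which starts the contact pathway) had -0.41 and -0.38, and F2 (prothrombin) had -0.25 and -0.21. The young log2 changes at 60 and 90 min were -0.08 and -0.01 for F10, -0.15 and -0.10 for F12, and -0.06 and 0.01 for F2. Each of the 3 thus lay nearer to sham in young than in adult liver at both times. F9 (factor IX) had log2 changes of -0.41 and -0.23 in adults, F7 (factor VII, the partner of tissue factor) -0.24 and -0.33, and F13b (the carrier subunit of factor XIII) -0.45 and -0.32. Kng1 (kininogen, a cofactor of the contact pathway) had log2 changes of -0.38 and -0.34, and Kng2 is a near-identical copy, so its value is uncertain.

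F5 and Klkb1 were the 2 members above 0 in adults at 90 min. F5 encodes factor V, the cofactor that speeds thrombin formation. On the young arrays F5 stood at 0.887, 1.11 and 1.00 after the sham operation, 0.911, 0.999 and 0.945 after 30 min, 1.12, 1.07 and 1.30 after 60 min and 1.26, 1.32 and 1.12 after 90 min. In adult liver its ratios were 0.989, 1.01 and 0.997 after the sham operation, 0.849, 0.846 and 1.22 after 30 min, 1.10, 0.858 and 0.723 after 60 min and 1.17, 1.03 and 1.01 after 90 min. All 3 young 90 min arrays lay above all young sham arrays, with a log2 change of 0.30 ± 0.14 (adjusted p = 0.525), and the adult 90 min change was 0.10 ± 0.14 (adjusted p = 0.678). Set against the median of the 39 members on the same array, F5 lay 0.29 to 0.46 above it (log2) on the adult 90 min arrays, against -0.10 to 0.07 on the adult sham arrays, and 0.30 to 0.43 on the young 90 min arrays, against -0.16 to 0.16 on the young sham arrays. F5 was picked after its values were seen and was the highest of the 39 on every 90 min array. These distances therefore describe the choice and test nothing. Klkb1, the gene of plasma prekallikrein, had log2 changes of -0.10 and 0.04 in adults at 60 and 90 min, the smallest adult changes of the 39 by size at either time.

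The 3 fibrinogen chain genes, whose products join into 1 secreted protein, kept close to each other. In adults Fga, Fgb and Fgg had log2 changes of -0.34, -0.49 and -0.36 at 60 min and -0.28, -0.41 and -0.30 at 90 min. At 90 min all 3 had their ischemia arrays below all sham arrays, against 26.4% of all genes. Their adjusted p was 0.106, 0.0607 and 0.0567 at 60 min and 0.191, 0.124 and 0.116 at 90 min, so none passed. Of all genes 11.9% and 7.45% passed at these times. The adult arrays had Fgg ratios of 0.921, 1.01 and 1.07 after the sham operation, 0.778, 0.922 and 1.01 after 30 min, 0.985, 0.741 and 0.647 after 60 min and 0.830, 0.847 and 0.759 after 90 min. Fgg ratios in young liver were 0.975, 0.997 and 1.03 after the sham operation, 0.827, 0.971 and 0.848 after 30 min, 0.935, 0.982 and 0.957 after 60 min and 0.957, 0.966 and 0.836 after 90 min. Fgg overlapped sham in adults at 60 min through replicate 1, and its young 30 and 90 min arrays lay below all young sham arrays, which differed little from each other. In young liver the 3 chains had log2 changes of -0.06, -0.11 and -0.12 at 90 min.

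Among the other coagulation inhibitors, Serpind1 (heparin cofactor II) had log2 changes of -0.39 and -0.31 in adults at 60 and 90 min, Proc (protein C) -0.41 and -0.22, and Pros1 (protein S, the cofactor of activated protein C) -0.36 and -0.55 (adjusted p = 0.0892 at 90 min). All 4 genes of this role had their adult 90 min arrays below all sham arrays, against 26.4% of all genes. In young liver at 90 min the 4 ran from -0.20 to 0.01. Of the genes of clot breakdown, Plg (plasminogen) had adult ratios of 0.981, 1.03 and 0.990 after sham and 0.819, 0.866 and 0.972 after 30 min. After 60 min they were 0.999, 0.740 and 0.608, and after 90 min 0.899, 0.844 and 0.759. The log2 change of Plg was -0.38 ± 0.13 at 60 min (adjusted p = 0.0579) and -0.26 ± 0.13 at 90 min (adjusted p = 0.189). On the young arrays Plg stood at 0.924, 1.04 and 1.04 after the sham operation, 0.840, 0.986 and 0.886 after 30 min, 0.893, 0.912 and 0.942 after 60 min and 0.991, 1.07 and 0.833 after 90 min. Cpb2, which encodes the carboxypeptidase that slows clot breakdown, had log2 changes of -0.60 and -0.49 at 60 and 90 min in adults (adjusted p = 0.0686 and 0.142), and -0.01 and -0.06 in young liver. Serpinf2, the alpha-2-antiplasmin gene, had log2 changes of -0.21 and -0.17 in adults.

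Of the 8 genes that start or amplify complement, Masp2 alone passed in adults, against 11.9% of all genes at 60 min and 7.45% at 90 min. The log2 changes of the 8 ranged from -0.42 to -0.20 at 60 min and from -0.47 to -0.15 at 90 min. C3, the component that all activation routes share, had log2 changes of -0.26 and -0.28 at 60 and 90 min in adults, and -0.02 and -0.03 in young liver. Cfb (factor B of the alternative pathway) had log2 changes of -0.34 and -0.36 in adults, and C2 (a component of the C3-cleaving enzyme) had -0.20 and -0.15. All 8 lay below 0 in adults at 90 min, and 4 of the 8 (Cfb, C2, C4b and Masp1) did not in young liver, at 0.15, 0.18, 0.12 and 0.09, with none past the threshold. The young values depended on the arrays: within the 2 sets of young arrays that share the first part of the title code, Cfb had 0.60 and -0.13 and C2 0.54 and -0.10. The lectins Mbl1 and Mbl2 had log2 changes of -0.42 and -0.32 in adults at 60 min and -0.28 and -0.16 at 90 min. Masp1, a protease bound to the same lectins, had log2 changes of -0.40 and -0.26. C4b had log2 changes of -0.21 and -0.25, and its value is uncertain because C4a is a near-identical copy.

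The 5 terminal genes, whose products build the membrane attack complex, had log2 changes from -0.43 (C8a) to -0.24 (C6) in adults at 60 min and from -0.38 (C6) to -0.16 (C9) at 90 min. Past the threshold were 0 of the 5 in either age, against 11.9% of all genes in adults at 60 min and 7.45% at 90 min. C8b and C8g, for the other C8 chains, had log2 changes of -0.33 and -0.35 at 60 min. C6 spread widely in young liver, with ratios of 0.584, 1.17 and 1.25 on the sham arrays. Of the remaining regulators, Vtn encodes vitronectin, which binds the forming attack complex and the inhibitor of plasminogen activation. In adult liver its ratios were 0.960, 0.941 and 1.10 after the sham operation, 0.785, 0.866 and 1.04 after 30 min, 0.986, 0.718 and 0.621 after 60 min and 0.840, 0.820 and 0.739 after 90 min. The young arrays had Vtn ratios of 0.926, 1.02 and 1.05 after the sham operation, 0.875, 0.942 and 0.830 after 30 min, 0.884, 1.00 and 0.923 after 60 min and 1.03, 0.981 and 0.840 after 90 min. The adult 90 min arrays lay below all sham arrays and those of 60 min overlapped them, with log2 changes of -0.39 ± 0.13 (adjusted p = 0.0579) and -0.32 ± 0.13 (adjusted p = 0.124). Serping1 (C1 inhibitor) had log2 changes of -0.42 and -0.38 in adults, and Cfi (factor I, which cleaves C3b and C4b) had -0.39 and -0.30. All 6 regulators had their adult 90 min arrays below all sham arrays, against 26.4% of all genes.

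In young liver the members lay as low as in adults at 30 min and closer to sham at 60 and 90 min. After 30 min all 39 log2 changes were below 0 (median -0.16), after 60 min 35 (median -0.09) and after 90 min 27 (median -0.04), against 56.6%, 55.3% and 57.6% of all genes and medians of -0.02 at each time. At 30 and 60 min 0 members passed in limma, against 0.0557% and 0.0279% of all genes. An unadjusted p under 0.05 was found for 1 member at 30 min (8.36% of all genes) and 2 at 60 min (10.4%). All 3 ischemia arrays lay below all 3 sham arrays for 7 members at 30 min (9.49% of all genes), 3 at 60 min (7.78%) and 3 at 90 min (9.5%). Within young arrays that share the first part of the title code, the members' median was -0.29 at 30 min (1 such set), 0.12 and -0.14 at 60 min, and 0.29 and -0.27 at 90 min, so its sign was not the same in the sets.

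**Figure D4:**
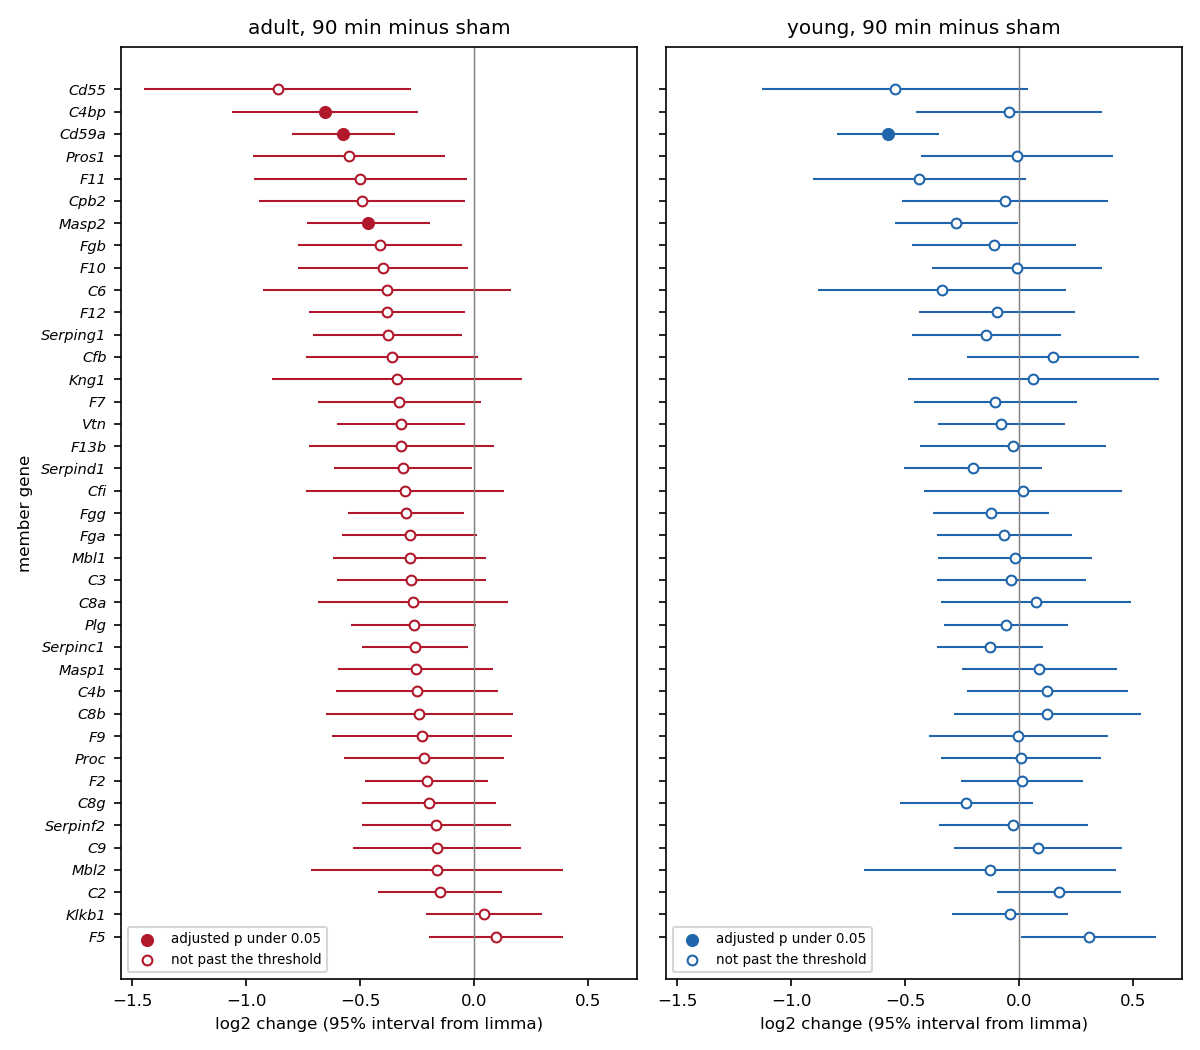
Log2 change of each member after 90 min minus sham (horizontal axis) with its 95% interval from limma, adults in the left panel and young liver in the right, members ordered by the adult change; filled points passed the adjusted threshold. In adults 37 of 39 points lie left of 0, and in young liver 27 do, with Cd59a and Cd55 lowest in young liver.

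The adult and young responses were then subtracted. No first part of the title code occurs in both ages, so a difference between ages cannot be told apart from one between codes. At 60 min 37 of 39 members had a lower log2 change in adults than in young liver, with a median difference (adult minus young) of -0.30, against 59.4% of all genes below 0 and a median of -0.05. At 90 min 36 of 39 did, with a median of -0.24, against 53.6% and -0.02. At 30 min 18 of 39 did, with a median of 0.02, against 50.7% and a median near 0. No single member's difference passed: limma called 0 of 39 at each time, and 0% of all genes. An unadjusted p under 0.05 was found for 0 members at 30 min (2.1% of all genes), 0 at 60 min (6.81%) and 1 at 90 min (11.2%), which was C4bp with -0.61 ± 0.28 (adjusted p = 0.439). For Cd59a the age difference was 0.06 ± 0.15 at 60 min and 0.00 ± 0.15 at 90 min, with a 95% interval of -0.32 to 0.32 at 90 min. For Cd55 it was 0.05 ± 0.40 and -0.32 ± 0.40, with an interval of -1.14 to 0.51 at 90 min. The median standard error of a member was 0.17 for a comparison with sham and 0.24 for an age difference. A log2 change of -1 lay outside the 95% interval of 36 members in adults at 60 min, 37 in adults at 90 min and 38 in young liver at 60 and at 90 min.

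Other genes of the same pathways, from lists chosen with earlier results known, are given for adults beside the same shares of all genes. Of 30 measured coagulation and clot breakdown genes outside the 39, 4 fell and 1 rose at 60 min (16.7%, against 11.9% of all genes), and 0 passed at the other times (at 90 min 7.45% of all genes did) or in young liver. Their log2 changes were below 0 for 23 of 30 at 60 min and 21 at 90 min, with medians of -0.28 and -0.18. The decreases were S100a10 (-0.73, a partner of the plasminogen receptor annexin), Tfpi2 (-0.73) and Tfpi (-0.45, the tissue factor pathway inhibitor), and Lman1 (-0.70, a carrier that factors V and VIII need to leave the endoplasmic reticulum), and F2rl2, a thrombin receptor, rose (0.35). Of 27 measured complement genes outside the 39, 4 fell and 1 rose at 60 min and 8 fell and 1 rose at 90 min in adults, and 1 fell in young liver at 90 min. These are 18.5% at 60 min and 33.3% at 90 min in adults, and log2 changes were below 0 for 19 and 22 of the 27. At 60 min these included Cr1l (-0.54), Fcna (-0.52) and Cd46 (0.44). At 90 min the largest decreases were Vsig4 (-1.54, a complement receptor of Kupffer cells), C1qb (-1.29), C1qa (-0.96) and Fcna (-0.94), and Cfd, the factor D gene, rose (0.75). Vsig4, C1qa, C1qb and C1qc are also in the Kupffer cell list, whose 12 of 14 decreases are given above. In young liver Colec11, a lectin of the stellate cell list, fell at 90 min (-1.04, adjusted p = 0.0206).

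Of 26 genes of the acute phase and its IL-6 signal, 1 fell at 60 min and 3 fell at 90 min in adults, and 0 passed in young liver. The adult shares were 3.85% and 11.5%, against 11.9% and 7.45% of all genes, and log2 changes were below 0 for 22 and 23 of the 26, with medians of -0.43 and -0.56. The decreases past the threshold were the serum amyloid genes Saa4 at 60 min (-0.93) and Saa2 (-2.76), Saa1 (-2.27) and Saa4 (-0.96) at 90 min. Of 18 transcription factors of hepatocytes, 1 fell at 60 min (Nr5a2, -0.49) and 3 fell at 90 min in adults, among them Hnf4a (-0.56, adjusted p = 0.0375), a nuclear receptor that many clotting factor genes depend on. The shares were 5.56% and 16.7%, against 11.9% and 7.45% of all genes, and most of the 18 lay above 0 in adults: 7 were below 0 at 60 min (median log2 change 0.05) and 8 at 90 min (median 0.11). Hnf4a is also the hepatocyte marker that passed at 90 min, so the 2 lists share this result. In young liver 1 of the 18, Prox1, rose at 60 min (0.78) and at 90 min (0.59).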

How the data were processed

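Liver RNA of 24 mice was hybridized to 24 arrays, 3 in each of 8 groups taken from the sample labels. RMA is named in the submitters' processing notes, with no version; the probe set definition and genome build are not given in the sources used here. The deposited values are linear ratios, and the authors had scaled each age to its own sham arrays: the sham mean is 1 within 2e-07 for each of 26180 probe sets. Ratios ran from 0.0255 to 16.9, and array medians from 0.955 to 1.02. The number of arrays limits the precision. The 39 members and all gene lists were chosen with earlier results of these data known.

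RefSeq accessions gave 1 symbol for 15228 probe sets and none for 10952. Where several probe sets stood for a gene (661 genes), 1 was taken without looking at values, by accession type and then the lowest number. Ratios were log2 transformed. A model of 8 group means was fitted in limma 3.58.1 under R 4.3.3 (residual degrees of freedom 16, prior 4.53), two-sided, with Benjamini-Hochberg adjustment over 14351 genes in each comparison. An adjusted p under 0.05 counts as past the threshold. Errors are standard errors unless SD is written. Values of every array are given for members past the threshold, filled to 8 by the lowest p, and F5 was added after its values were seen; from each gene list at most 4 genes past the threshold with the largest changes are named, and C1qc, Cfd and F2rl2 were added after their values were seen. 1 gene that the naming rule would give is not reported here. The script was tested on simulated data.

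Alternatives were quantile normalization, arrays centred on their median, testing each probe set separately, a block for the shared beginning of the title code, a covariate for the code's number, array weights, a robust prior, fits of 1 age alone, and leaving out each array. Centring on hepatocyte markers was added after seeing the data.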

Additional observations from a re-analysis of the deposited data

How the results depend on the processing

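Counts of members past the threshold were 0 or 1 in young liver and depended strongly on the setting in adults; no value changed sign among those past the threshold. At 60 min in adults the count of 4 was 2 with every probe set on its own, 1 with arrays centred on their median, 0 with quantile normalization, with a block for arrays sharing the beginning of the title code, with fits of 1 age alone and with arrays centred on hepatocyte markers, 9 with array weights and 19 with the number in the title code as a covariate. Of all genes (probe sets for the first), 7.9%, 9.76%, 0%, 11.9%, 4.09%, 16.9%, 19.5% and 22.3% passed at 60 min under these settings in the order given. The number in the title code was 5 on every adult sham array and 4 on every adult 60 min array. Within these arrays it cannot be told apart from ischemia, and its slope comes from arrays of other groups. At 90 min in adults the count of 3 was 0 with quantile normalization, fits of 1 age alone and hepatocyte-marker centring, 6 with the covariate and 7 with array weights, against 0.0209%, 0.328%, 0.432%, 17.1% and 20.9% of all genes. At 90 min in young liver the count of 1 was 0 with the block, the covariate and hepatocyte-marker centring, against 0.0279%, 0.111% and 0.174% of all genes. For the 3 times tested together, the adult count of 1 was 0 with quantile normalization, fits of 1 age alone and hepatocyte-marker centring, 3 with the covariate and 4 with array weights, against 0%, 0.00697%, 0.0418%, 10.3% and 18.8% of all genes, and the young count of 0 was 1 with array weights, against 3.25%. The age difference at 90 min gave 1 with array weights in place of 0, against 9.08% of all genes. Leaving out 1 array at a time gave 0 to 27 at 60 min and 0 to 2 at 90 min in adults, 0 to 1 at 90 min in young liver and 0 to 5 for the adult times together. The members' median in adults lay between -0.57 and -0.22 at 60 min and between -0.35 and -0.22 at 90 min over the arrays left out, and in young liver at 90 min between -0.13 and 0.04. The causes were not tested. The title code block has no stated meaning. The genes' deviations from their group means were correlated between arrays of the same age but different groups. For pairs that share the first part of the code these correlations ran from -0.38 to 0.42. For pairs that do not share it, they ran from -0.44 to 0.47. Background correction and a filter on dim probe sets need brightness, which ratios do not keep, and were not run.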
